A study of Mus musculus with 6 samples.

Results

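Lilrb4a and Lilr4b are neighbouring mouse genes of the leukocyte immunoglobulin-like receptor family, and their levels were measured in regulatory T (Treg) cells of pancreas and spleen. The 2 genes were chosen from the pancreas and spleen values described here, so their difference between the tissues is given as a description, with no test. They are 2 of the 19752 genes measured, and 2 of the 24922 probe sets on the array name them, 1 for Lilrb4a (probe set 10363082) and 1 for Lilr4b (probe set 10363070). There were 0 probe sets that name both genes and 0 that name a member together with another gene.

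The 6 arrays hold RNA of Treg cells, a Foxp3-expressing kind of CD4 T cell that restrains immune responses, from female NOD mice that were 10 weeks old and prediabetic. This strain spontaneously develops autoimmune diabetes. The mice carried the NOD.Foxp3-ires-gfp reporter and the genetic background NOD NRB_SFB+, in both groups alike. Pa.Treg.10wk is the group from pancreas and Sp.Treg.10wk the group from spleen, with 3 arrays each. Cells were taken by 2 rounds of sorting as DAPI-, CD45+, TCRb+, CD4+ and GFP+, so Treg cells are those in which the reporter was seen. No treatment or mutation separates the groups. The labels do not say whether arrays came from separate mice or from pools, so the spread behind the p-values given for other genes may be technical, and they measure no more than that spread. The genes of the sorted cells were at high levels in both tissues. The log2 level of Foxp3 was 11.48 ± 0.16 in pancreas against 11.52 ± 0.32 in spleen, and that of Cd4 was 11.33 ± 0.41 against 11.42 ± 0.45 (mean ± SD, n = 3 each).

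As background, Lilrb4a encodes gp49B (also called ILT3 or CD85K), a cell-surface receptor with immunoglobulin-like domains outside the cell and immunoreceptor tyrosine-based inhibitory motifs (ITIMs) in its cytoplasmic tail. When these tyrosines are phosphorylated they recruit the phosphatase SHP-1, which dampens signalling from activating receptors. Lilr4b encodes gp49A, whose extracellular part closely resembles that of gp49B but whose short tail lacks such motifs, so the members form a family pair of which Lilrb4a is the inhibitory receptor. Both are best known from mast cells and macrophages, and gp49B is also found on dendritic cells, neutrophils, NK cells, plasma cells and activated T cells.

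The 2 genes lie side by side on chromosome 10, with 0 genes between them in the RefSeq table of GRCm38.p6. Of the 2 members, 1 matched the RefSeq table of start regions, Lilr4b, and no start region of Lilrb4a, the inhibitory receptor gene, was searched. That of Lilr4b is shown because its level differed between the tissues. It is the RefSeq window of GRCm38.p6 at chr10:51480362-51480661 on the + strand, 300 bases from 250 before the gene's start to 50 from it on, and the capitals mark the single match to a searched motif:

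Lilr4b: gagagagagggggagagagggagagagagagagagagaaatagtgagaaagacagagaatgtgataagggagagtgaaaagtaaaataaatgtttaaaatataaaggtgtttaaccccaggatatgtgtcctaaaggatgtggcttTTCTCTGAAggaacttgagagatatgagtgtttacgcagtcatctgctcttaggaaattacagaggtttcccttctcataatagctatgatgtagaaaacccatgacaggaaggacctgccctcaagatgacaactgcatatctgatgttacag

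Motifs were searched as exact letters on both strands, for factors of activated T cells and of myeloid cells. The STAT motif TTCNNNGAA had 1 match, TTCTCTGAA, which begins 147 bases into the window, and 8.30% of the 32851 windows in the table hold this motif. The other motifs had 0 matches. They were the AP-1 motif TGANTCA (in 7.81% of all windows), the NFAT motif GGAAAA (23.4%), the PU.1 and ETS motif GAGGAAGT (3.20%), the interferon regulatory factor (IRF) motif (3.44%), the C/EBP motif TTGCNNAA (10.8%) and the T-box motif GGTGTGA (3.98%). A match or its absence describes the letters of this window only.

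Lilrb4a, the inhibitory receptor gene, had log2 intensities of 8.22, 8.28 and 8.25 on the pancreas arrays, in the order of their numbers, and 5.68, 6.17 and 6.15 on those of spleen. All 3 pancreas arrays were above all 3 spleen arrays, with 2.05 between the lowest pancreas and the highest spleen value, or 4.13-fold. The tissue means were 8.25 ± 0.03 and 5.9995 ± 0.28 (SD, n = 3 each), a difference of 2.25 on the log2 scale, or 4.75-fold. In linear intensity the means correspond to 304 in pancreas and 64.0 in spleen. A background level of 63.9 was set from olfactory and vomeronasal receptor genes, which T cells are not known to use, so the splenic mean of Lilrb4a lay at background, with spleen arrays 2 and 3 above it and spleen array 1 below. With that array raised to background, the difference was 2.14.

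Lilr4b, the gene of the member without inhibitory motifs, was at 8.12, 8.02 and 7.87 in pancreas and at 5.07, 5.32 and 5.38 in spleen, in the same order. Its tissues did not overlap either, with 2.50 between the nearest pancreas and spleen values. The means were 8.003 ± 0.12 and 5.26 ± 0.16. All 3 spleen arrays were below background, so the measured difference of 2.75 is not exact, and pancreas was at least 4.02-fold higher. The nominal order of the differences, with Lilr4b 0.50 above Lilrb4a, turned when values under background were set to that level, at 2.01 for Lilr4b and 2.14 for Lilrb4a. The arrays therefore do not order the members by the size of their difference. In bulk samples such as these, a change in the share of cells that express a gene and a change in RNA per cell cannot be told apart.

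**Figure D1:**
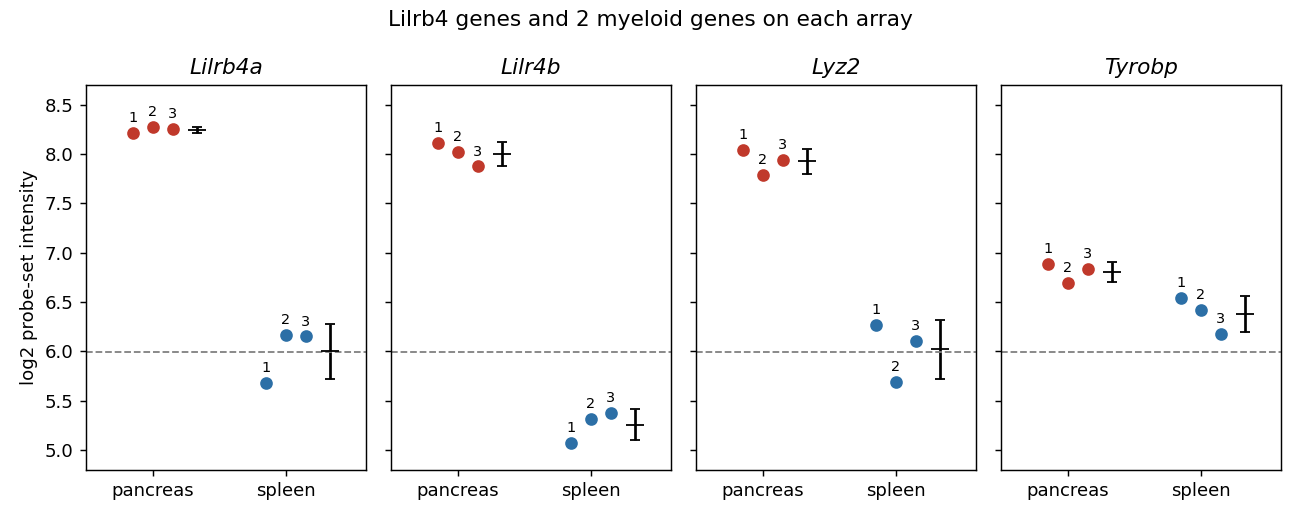
Log2 probe-set intensity of Lilrb4a, Lilr4b, Lyz2 and Tyrobp on each of the 6 arrays, numbered as in the labels, with pancreas in red and spleen in blue. Bars give the mean ± SD of 3 arrays and the dashed line the background level (intensity 63.9); the pancreas points of both Lilrb4 genes lie far above the spleen points, as do those of Lyz2, whereas those of Tyrobp differ by 0.42.

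Over all 19752 genes, 902 (4.57%) had 3 pancreas arrays above 3 spleen arrays, and 1147 (5.81%) the reverse. Since the members were chosen on this contrast, nothing is read from their being among the former.

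Among the pancreas arrays Lilrb4a hardly varied. Its highest and lowest pancreas values were 0.06 apart, a smaller range than in all but 143 (1.22%) of the 11724 genes above background in pancreas, whose median range was 0.49. Lilr4b ranged over 0.24 there, and 16.1% of those genes ranged over less. The members were chosen from these same values, so their ranges within pancreas are a description only. With Lilrb4a so even there, the order of its pancreas arrays is not read. Within spleen both members were lowest on array 1, where both were below background.

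Leaving out any 1 array kept the Lilrb4a difference between 2.09 and 2.33 and the Lilr4b difference between 2.66 and 2.81. The lower end came without spleen array 1 for both genes. Quantile normalization gave 2.29 and 2.77, and centring each array on its median gave 2.24 and 2.74.

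**Figure D2:**
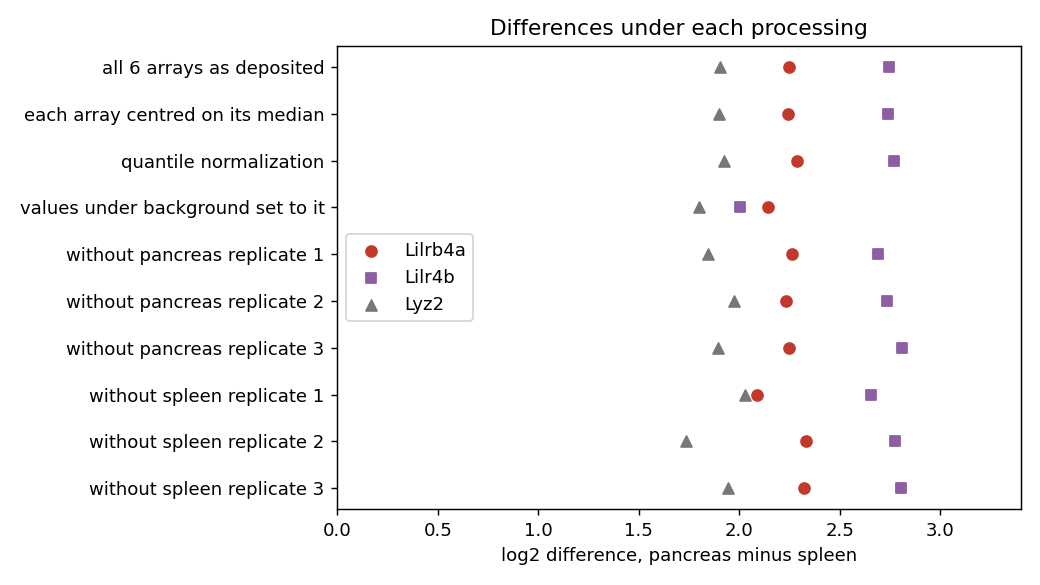
Log2 difference, pancreas minus spleen, of Lilrb4a (circles), Lilr4b (squares) and Lyz2 (triangles) with all 6 arrays and under the alternatives of normalization, background and each array left out. Lilrb4a stays between 2.09 and 2.33 throughout; Lilr4b moves only where values under background are set to that level, to 2.01.

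The other family genes with a probe set of their own were near or below background, with small differences that did not pass the test. At such levels a difference can go unseen. Of the Lilr and Pir genes other than the members, which in mouse include the paired receptors PirA and PirB of myeloid and B cells, 3 had a probe set of their own. Pirb, the gene of the inhibitory receptor PirB, was at 6.05 ± 0.46 in pancreas and 5.79 ± 0.25 in spleen. It was above background on 1 pancreas array and 0 spleen arrays. Lilra5 had a difference of 0.17 and Lilra6 of 0.36, and both were below background on every array. In limma's fit over all genes with Benjamini-Hochberg adjustment, 0 of these 3 passed an adjusted p of 0.05, and 0 had an unadjusted p under 0.05. Among all genes 0.678% passed, 0.547% higher in pancreas and 0.132% higher in spleen, and 6.84% had an unadjusted p under 0.05. A pair of probe sets that each name 6 genes, Pir genes among them, had differences of 0.25 and 0.44, with overlapping arrays. The former was above background on all arrays, the latter on 1 pancreas array and 0 spleen arrays.

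The genes on either side of the members did not pass the test. These were the 3 nearest tested protein-coding genes on each side in the RefSeq order, a choice made after the values were seen. On one side were Ascc3, a helicase gene, at -0.30, the transcription factor gene Sim1 at -0.18 and the glutamate receptor gene Grik2 at 0.10. On the other were Fam162b at -0.02, the amino acid-sensing receptor gene Gprc6a at 0.02 and the islet transcription factor gene Rfx6 at 0.15. Of these 6, 0 passed limma's test and 0 had an unadjusted p under 0.05, beside 0.678% and 6.84% of all genes. Ascc3 was the only 1 above background on all arrays.

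Lilrb4a and Lilr4b are close in sequence, and a probe set of one may take up signal from the other. This was not tested, since probe sequences were not used here. Their patterns over the 6 arrays were similar but not the same. The measure of likeness was the root mean square, over the 6 arrays, of the difference between 2 genes' log2 values, each gene's own mean taken away. It was 0.27 between the members. By this measure Lilr4b was at position 8 of the genes nearest to Lilrb4a, and Lilrb4a at position 2 of those nearest to Lilr4b. The log2 value of Lilr4b minus that of Lilrb4a ran from -0.38 to -0.10 in pancreas and from -0.85 to -0.60 in spleen.

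The 6 genes whose array pattern was most like that of Lilrb4a were, in order, the chemokine receptor gene Cxcr6 (0.18), the granzyme gene Gzmk (0.19), the cytotoxic granule gene Nkg7 (0.20), the decoy receptor gene Il1r2, which takes up IL-1 (0.22), the chemokine receptor gene Ccr8 (0.22) and the AP-1 gene Fos (0.23). For Lilr4b, with Lilrb4a left out, they were the chemokine gene Ccl3 (0.18), Cxcr6 (0.28), Fos (0.37), the secreted glycoprotein gene Dmbt1 (0.37), the cytokine gene Il10 (0.39) and Gzmk (0.43). The likeness reflects mostly the tissue difference on which the members were chosen, so it is a description. Genes of other cell types were also near, in positions that count all genes. Cd74, the MHC class II invariant chain gene of B cells and myeloid cells, was at 0.33 from Lilrb4a, position 11, and at 0.46 from Lilr4b, position 12. Lyz2, the lysozyme gene of macrophages and other myeloid cells, was at 0.37 from Lilrb4a, position 14, and at 0.49 from Lilr4b, position 18. Jchain, the antibody joining chain gene of plasma cells, was at 0.49 from Lilr4b, position 16, and at 0.73 from Lilrb4a, position 168. Tyrobp was much farther away, at 0.95 and 1.18. With each array centred on its median, all 12 of these nearest places were kept by the same genes.

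**Figure D3:**
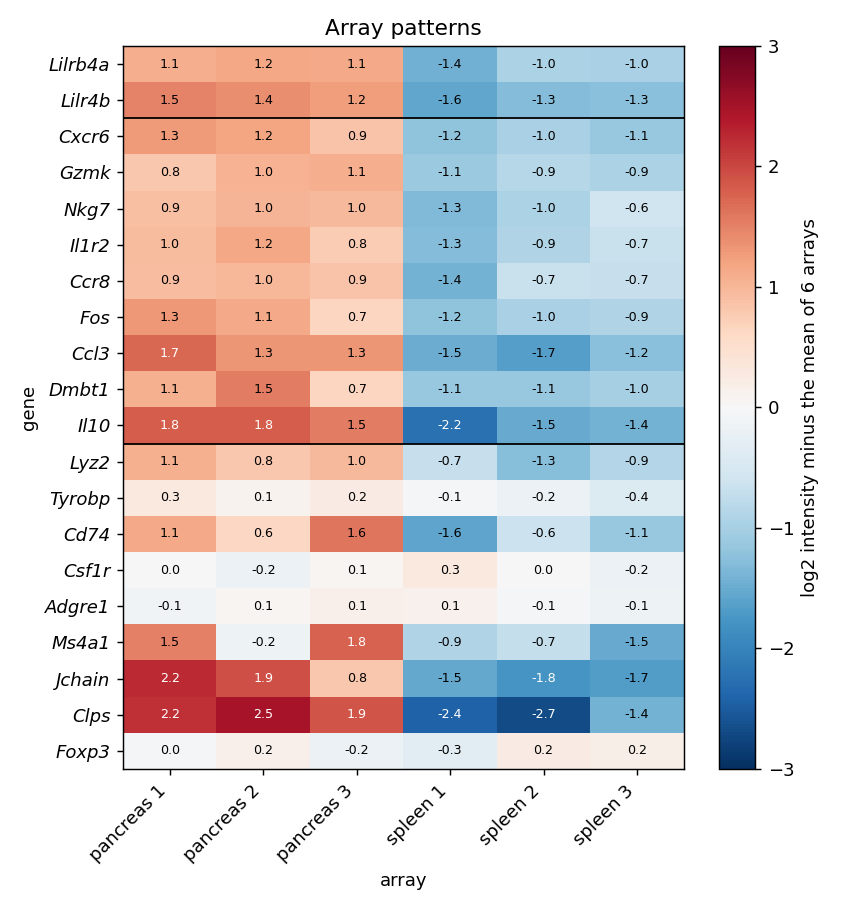
Log2 intensity of 20 genes on each of the 6 arrays, less each gene's mean over the 6 arrays, printed in each cell and coloured from blue (below) to red (above). The members are at the top and their nearest genes in the middle. At the bottom are genes of myeloid cells (Lyz2, Tyrobp, Csf1r, Adgre1), of myeloid and B cells (Cd74), and of B cells (Ms4a1). Those of plasma cells (Jchain), acinar cells (Clps) and Treg cells (Foxp3) are there too. Within pancreas Lilrb4a ranges over 0.06, Lilr4b over 0.24, Lyz2 over 0.26, Tyrobp over 0.19 and Ms4a1 over 1.94.

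Myeloid genes were set beside the members, since myeloid cells also express Lilrb4a and Lilr4b. Lyz2 was at 8.04, 7.79 and 7.94 in pancreas and at 6.27, 5.69 and 6.10 in spleen, a difference of 1.90 ± 0.19 (SE, limma adjusted p = 0.00134). That call ended with values under background raised to it (adjusted p = 0.0783), a setting under which 3 of all genes passed. Its lowest adjusted p, 6.66e-09, came with array weights, whose estimate did not converge and under which 7206 genes passed. The next lowest was 0.000151, without pancreas array 3. Within pancreas Lyz2 ranged over 0.26, beside 0.24 for Lilr4b and 0.06 for Lilrb4a. Tyrobp, which encodes the activating adaptor DAP12 of myeloid and NK cells, was at 6.88, 6.69 and 6.84 in pancreas and at 6.54, 6.42 and 6.18 in spleen. Its arrays did not overlap, but its difference of 0.42 ± 0.17 did not pass the test (adjusted p = 0.590).

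The wider list of macrophage and dendritic cell markers was uneven. Of 37 genes, 36 were measured, and 4 rose and 0 fell over all genes: Lyz2, and H2-Aa (log2 difference 2.51, adjusted p = 0.00506), Cd74 (2.24, adjusted p = 0.00586) and H2-Ab1 (1.69, adjusted p = 0.00952), which belong to antigen presentation by MHC class II and are also expressed by B cells. Among all genes 0.547% rose and 0.132% fell. Of the 36, 12 had an unadjusted p under 0.05, beside 6.84% of all genes. All pancreas arrays were above all spleen arrays in 13 of the 36, beside 4.57% of all genes. The list's median difference was 0.10, beside -0.0009 over all genes, and 0.43 over the 18 members with a mean above background. Its summed intensity was 5949 to 7557 on the pancreas arrays and 5149 to 6114 on the spleen arrays, which overlap. Taken alone, the macrophage markers summed to 2663 to 3312 in pancreas and 2044 to 2445 in spleen, without overlap. The dendritic cell markers, Ccr7 among them, summed to 3205 to 4379 and 2797 to 3669, which overlap. Ccr7, a chemokine receptor gene that T cells also express highly, ran the other way, at 10.42 ± 0.15 in pancreas and 11.20 ± 0.26 in spleen (adjusted p = 0.123). With Ccr7 left out, a choice made after the values were seen, the sums of the whole list were 4554 to 6042 in pancreas and 3051 to 3268 in spleen. These did not overlap. Many genes that define these cells were not above background, as were many of all genes. Of the 36, 18 had a mean above background, beside 11698 of all 19752 genes. On all 6 arrays 16 of the 36 were below background. They included the macrophage genes Csf1r, Adgre1 (F4/80), Fcgr1, Cd14, Mrc1 and Cd163. The dendritic cell genes Itgax (CD11c), Flt3, Xcr1 and Clec9a were also among them. The macrophage genes Ctss, Cd68, Lyz1, C1qb and Itgam were among those above background on all 6 arrays. Their means in pancreas and spleen were 9.37 and 9.44, 7.44 and 6.90, 6.98 and 6.34, 6.58 and 6.68, and 6.39 and 6.45, in that order. The dendritic cell gene Cd209a was at 7.20 ± 0.84 in pancreas and 5.79 ± 0.20 in spleen (adjusted p = 0.132). The pancreas arrays of Cd68, Lyz1 and Cd209a were all above those of spleen. The myeloid transcription factor gene Spi1 (PU.1) was above background on 2 pancreas arrays and 0 spleen arrays. Its difference of 0.70 did not pass (adjusted p = 0.305), and neither did that of Cybb, a subunit gene of the phagocyte oxidase, at 0.84 (adjusted p = 0.202). Beyond these levels, what part such cells have in the Lilrb4a and Lilr4b difference was not tested.

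Markers of mast cells, in which gp49 was first described, were mostly below background. Of 14 mast cell markers, 0 passed limma's test and 0 had an unadjusted p under 0.05. Among all genes 0.678% passed and 6.84% had an unadjusted p under 0.05. The mast cell median difference was 0.02, and the summed intensity was 394 to 504 in pancreas and 402 to 489 in spleen. Of the 14, 2 had a mean above background, beside 11698 of all 19752 genes. The defining genes Kit, Cpa3, Fcer1a, Ms4a2 and Mcpt4 were among 11 below background on all arrays. Gata2 was above background on all arrays, at 6.41 ± 0.20 in pancreas and 6.40 ± 0.14 in spleen. Hdc, at 6.06 ± 0.16 and 6.03 ± 0.06, was above it on 2 arrays of each tissue. Of 10 neutrophil markers 0 passed, with 0 at an unadjusted p under 0.05, a median of 0.08 and sums of 451 to 516 in pancreas and 413 to 532 in spleen. Of 10 NK and CD8 T cell markers 0 passed, with 2 at an unadjusted p under 0.05, a median of 0.13 and sums of 842 to 1005 in pancreas and 813 to 920 in spleen.

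Of the markers of pancreatic acinar cells most passed the test, and of those of B cells and of plasma cells 1 each did. Among all genes 0.547% passed higher in pancreas and 6.84% had an unadjusted p under 0.05. All pancreas arrays were above all spleen arrays in 4.57% of all genes. The B cell markers, 9 measured, had a median difference of 0.74, with 8 at an unadjusted p under 0.05, 6 with all pancreas arrays above all spleen arrays, and 1 past the test (Cd79a, of the B cell receptor, 1.86, adjusted p = 0.0482, with adjusted p up to 0.142 when 1 array was left out) and sums of 927 to 1963 in pancreas and 700 to 792 in spleen. Ms4a1, the gene of CD20, was at 7.998, 6.32 and 8.26 on pancreas arrays 1 to 3. Of 5 plasma cell markers, 1 passed, the antibody joining chain gene Jchain, at 8.85, 8.54 and 7.41 in pancreas and below background in all 3 spleen arrays (at least 4.82-fold, adjusted p = 0.000975). The plasma cell markers Mzb1 (0.48) and Derl3 (0.30), whose means were above background in both tissues, did not pass. All pancreas arrays of Mzb1 were above its spleen arrays. Sdc1 (0.20) and Tnfrsf17 (-0.0080), whose means were below background in both tissues, did not pass either. The list's sums were 463 to 743 in pancreas and 252 to 288 in spleen. Of 9 acinar markers 8 passed, with a median of 3.75 and sums of 12052 to 24420 in pancreas and 887 to 2363 in spleen. Clps, the colipase gene, was highest in pancreas on array 2, at 12.38, and lowest on array 3, at 11.80. The sums of all 3 lists were higher in pancreas without overlap, and their part in the members' difference was not tested.

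**Figure D4:**
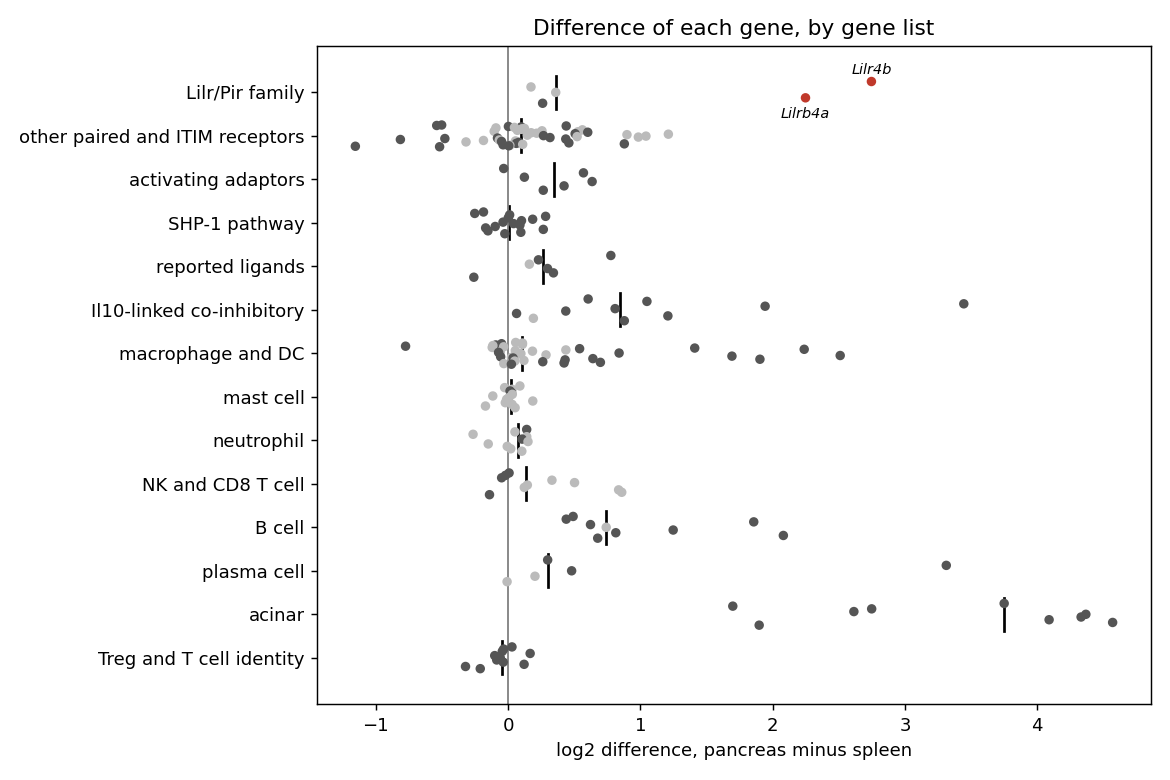
Log2 difference, pancreas minus spleen, of each measured gene on each list, with Lilrb4a and Lilr4b in red, genes whose mean is above background in at least 1 tissue in dark grey and the rest in light grey. The black bar is the list's median. The 2 members stand at 2.25 and 2.75, away from the 3 other family genes, which were near or below background. The SHP-1 pathway genes lie between -0.25 and 0.28.

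Ligands reported for gp49B or its human counterpart LILRB4 did not pass the test. The integrin that gp49B binds is made of the products of Itgav, at 9.52 ± 0.23 in pancreas and 9.22 ± 0.11 in spleen, and Itgb3, at 8.05 ± 0.50 and 7.71 ± 0.17. Apoe, the apolipoprotein gene, was at 7.67 ± 0.22 and 7.44 ± 0.19. Alcam, which encodes the adhesion molecule CD166, had the largest difference of the 6 ligand genes (0.78 ± 0.16 SE, adjusted p = 0.0644). In limma's fit 0 of 6 passed, and 1 had an unadjusted p under 0.05, beside 0.678% and 6.84% of all genes. The list's median was 0.26.

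Genes of the machinery through which an inhibitory receptor acts were above background in both tissues and did not pass the test in either direction. Ptpn6, the gene of SHP-1, was at 8.77 ± 0.26 in pancreas and 8.92 ± 0.05 in spleen, Ptpn11, the gene of the related phosphatase SHP-2, at 8.44 ± 0.52 and 8.61 ± 0.10, and Inpp5d, the gene of the lipid phosphatase SHIP-1, at 10.35 ± 0.25 and 10.27 ± 0.27. Of the 16 measured genes of this list, which adds Src family kinases, Csk, Dok adaptors and Cbl ubiquitin ligases, 0 passed limma's test and 0 had an unadjusted p under 0.05. Their differences ran from -0.25 to 0.28, with a median of 0.01. All 16 had a mean above background. Among all genes 0.678% passed and 6.84% had an unadjusted p under 0.05.

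Adaptors of activating receptors were also measured, since paired receptors without inhibitory motifs commonly signal through them. Fcer1g, the common Fc receptor gamma chain gene, had a difference of 0.57 ± 0.20 (adjusted p = 0.425), the kinase gene Syk of 0.64 ± 0.23 (adjusted p = 0.469), and Hcst, the gene of DAP10, of 0.12 ± 0.17. Of the 6 genes 0 passed limma's test, beside 0.678% of all genes, and their median was 0.34. An unadjusted p under 0.05 was found for 3 of them, beside 6.84% of all genes. Of those 3, Fcer1g had 2 of 3 spleen arrays above background and Syk 0 of 3.

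Among 46 other paired and ITIM-bearing receptors, 3 were higher in pancreas and 1 higher in spleen in the test, beside 0.547% and 0.132% of all genes. Of the 46, 14 had an unadjusted p under 0.05, beside 6.84% of all genes. Their median difference was 0.10, beside -0.0009 over all genes. Tigit, a co-inhibitory receptor gene of Treg cells, was at 11.87 ± 0.06 against 10.99 ± 0.19 (adjusted p = 0.0473). Treml2, a receptor gene of the TREM family, was lower in pancreas, by 1.15 on the log2 scale (adjusted p = 0.0258). The lectin-like receptor genes Klrc1 (NKG2A) and Klrd1 (CD94), whose products form an inhibitory receptor of NK and T cells, passed at 1.04 and 0.98 (adjusted p = 0.0383 and 0.0397), but all their values were below background. When arrays were left out singly, each of these 4 calls held in 1 or 2 of the 6 fits, and the adjusted p reached 0.218 for Klrd1. Pecam1, whose product also carries ITIMs, was at -0.81 (adjusted p = 0.112). The B cell inhibitory receptor genes Cd22 (0.44) and Fcgr2b (0.53) and the collagen receptor gene Lair1 (-0.08) did not pass.

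The list of Il10-linked co-inhibitory genes was drawn up with earlier results of these data known. On it 4 of 10 rose and 0 fell, against 0.547% and 0.132% of all genes. An unadjusted p under 0.05 was found for 7 of the 10, against 6.84% of all genes. The splenic arrays of Il10 were below background, and its pancreatic level was higher by at least 8.41-fold (adjusted p = 7.72e-05), the co-inhibitory receptor gene Lag3 was higher by 1.94 (adjusted p = 0.00959), the repressor gene Prdm1 by 1.21 (adjusted p = 0.0215), and Tigit was the fourth. The call of Lag3 ended without pancreas array 1, where its adjusted p was highest of the 6 such fits, at 0.0594. When arrays were left out singly the calls of Prdm1 and Tigit each held in 1 of 6 fits. Havcr2 (TIM-3) had a difference of 1.05 (adjusted p = 0.0667), Maf, a transcription factor gene, at 0.81 (adjusted p = 0.284), Ctla4 at 0.60 (adjusted p = 0.318) and Pdcd1, the gene of PD-1, at 0.44 (adjusted p = 0.910). All 10 had a higher mean in pancreas, with a median of 0.84.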

How the data were processed

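Per the labels, the arrays were Affymetrix Mouse Gene 1.0 ST, and the RNA of the sorted cells had been amplified (Ambion WT Expression Kit). The authors deposited probe-set intensity on a linear scale, for which the submitters' processing notes name RMA and Affymetrix Power Tools; their versions and a genome build are not given in the sources used here. Deposited columns had medians of 82.0 to 92.0 and interquartile ranges of 2.23 to 3.07 (log2), so their widths differ. Values were taken to log2 with no pseudocount or filter. Of the probe sets, 21425 name 1 gene, 1399 several and 2098 none; the brightest of each gene was used. Background was the 95th percentile of 1194 olfactory and vomeronasal receptor genes' means, and 11123 to 12409 genes per array were above it.

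Other genes were compared with limma 3.58.1 in R 4.3.3, two-sided over all 6 arrays, with Benjamini-Hochberg adjustment. The fit was tested on simulated data in which a gene's spread was equal on all arrays. The widths of the real arrays differ, so that check does not show how well these calls hold. Members, lists, tests and alternatives were chosen with earlier results of these data known. Named are the members, Lyz2, Tyrobp, members of each list above background with the smallest adjusted p or past the test, and the 6 nearest genes by array pattern; defining markers, and receptors, ligands and Treg genes of known role, are named outside this rule. Alternatives covered normalization, background, dim genes, probe sets, variance model, array weights, the replicate number and each array left out. Promoter windows came from RefSeq. The motif search in proteins was not run. The number of arrays limits the precision.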

Additional observations from a re-analysis of the deposited data

How the results depend on the processing

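For the members the alternatives given were those of normalization, background and each array left out. Under all of these the differences of Lilrb4a and Lilr4b kept their direction. That of Lilr4b moved beyond its spread only with dim values raised to the background level (2.01 against 2.75). With 1 array left out it ran from 2.66 to 2.81, and that of Lilrb4a from 2.09 to 2.33. The count of 134 genes past the test was 64 with each array centred on its median, 212 with quantile normalization, 3 with values under background set to it, 76 over all 24922 probe sets, and 64 to 262 with 1 array left out (the lowest without spleen array 1, the highest without pancreas array 3). Array weights gave 7206, with weights of 9.50 and 5.69 on pancreas array 2 and spleen array 2 and 0.236 to 0.650 on the others, in a weight estimate that did not converge. The cause of these shifts was not tested. Of the 21 listed genes past the test, members left out, 20 lost their call with dim values raised, where the prior degrees of freedom fell from 6.58 to 0.353 and genes such as Cd74 kept the same difference, and 7 lost it with arrays centred. The macrophage and dendritic cell median rose from 0.10 to 0.43 over members above background, was 0.11 with Ccr7 left out (an alternative chosen after seeing the data), and ran from 0.037 to 0.19 with 1 array left out. Those of the SHP-1 pathway (-0.16 to 0.18) and mast cell lists (-0.080 to 0.13) changed sign there, and that of the other receptors did not (0.0026 to 0.20). Same-numbered arrays of the tissues deviated with correlations of -0.46, 0.11 and -0.68 across genes. The highest correlation, 0.65, was between pancreas array 3 and spleen array 1, which had the narrowest interquartile ranges (2.23 and 2.49). Since array widths differ, such correlations cannot tell whether same-numbered samples belong together. With the replicate number as a block 132 genes passed, and Klrc1, Klrd1 and Tigit no longer did.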
